A study of Mus musculus with 6 samples.

Results

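The replication-dependent histone genes are described here in isolated lung ECs (iLECs) of control and *Atp6ap2* iECKO mouse pups. Members were the rows of the deposited table whose symbol starts with Hist1h, Hist2h, Hist3h or Hist4h, the names of the genomic histone clusters, and the rule used no measured value. It found 69 of 24972 gene symbols, of which 6 are named for the linker histone H1, 19 for H2A, 19 for H2B, 12 for H3 and 13 for H4. Of these, 67 are annotated as protein-coding and 2, *Hist1h2al* and *Hist3h2bb-ps*, as processed pseudogenes. The Hist1 cluster on chromosome 13 holds 55 of them, Hist2 on chromosome 3 holds 10, Hist3 on chromosome 11 holds 3, and Hist4 on chromosome 6 holds 1.

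The data are RNA-Seq libraries of 3 control and 3 *Atp6ap2* iECKO samples, taken at P7. The labels give floxed *Atp6ap2* (fl/Y) on a C57BL/6 strain for both groups, and the study's methods give a mixed CD1 and C57BL/6 background. Pups of both groups received 100 μg tamoxifen on P1 to P3. The iECKO pups also carried Cdh5(PAC)-CreERT2, a tamoxifen-inducible Cre under the promoter of the endothelial cadherin gene, and the controls carried no Cre. Cells were bound to magnetic beads that carried CD31 antibody, from collagenase and dispase digests of whole lung, so that other lung cells can be carried along, and whether lungs were pooled is not given in the sources used here. *Atp6ap2* itself was at 7490, 5815 and 5681 in control 1, 2 and 3 and at 4220, 2336 and 1982 in iECKO 1, 2 and 3 (log2 fold change -1.22, SE 0.26, limma with Benjamini-Hochberg adjustment, adjusted p = 0.0306), and the groups did not overlap. That call held without iECKO 1 and was lost when any other single library was left out (adjusted p from 0.0628 to 0.103) or when the mean-variance trend was dropped (0.0917). Values throughout are the authors' normalized read counts, scaled to equal the typical gene between libraries and not divided by gene length.

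The libraries did not all match their labels. *Xist*, the RNA that coats the inactive X chromosome in female cells, was at 37704 in control 1, 44402 in control 2, 39442 in iECKO 1 and 47487 in iECKO 3, but at 31.7 in control 3 and 19.3 in iECKO 2, while all 6 labels read fl/Y. The study's methods describe both male and female pups. Each group therefore held *Xist*-high and *Xist*-low libraries. For the histone cluster genes and the lists of histone and S phase factors, the calls lost with *Xist* as a covariate are named beside them. For the markers of lung cell types no such fit is given. Endothelial markers were present in both groups. All 15 markers of the endothelial list passed the filter, led by *Cdh5*, and *Pecam1*, which encodes CD31 itself, ranged from 48730 to 57759. All 15 mural and all 15 epithelial markers passed too, so that passing does not set endothelial cells apart.

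Cells that replicate their DNA must make histones in step with it. The genes that supply these histones are mostly intronless, and their mRNAs end in a conserved stem-loop instead of a poly(A) tail; the stem-loop is bound by SLBP (encoded by *Slbp*), which directs 3′ cleavage together with the U7 snRNP. Replacement histones such as H3.3 and H2A.Z come from ordinary polyadenylated genes outside the clusters and are made throughout the cell cycle. Some cluster genes can also yield polyadenylated mRNAs from an AATAAA signal downstream of the stem-loop. The libraries here were made with a kit that captures poly(A) RNA and does not mark strand, so a value measures the captured transcripts of a histone gene, not its whole mRNA.

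The stem-loop distinguished these genes from the rest of the transcriptome. The letters GG, any 2 bases, CTTTT, any 1 base, AG, any 1 base and GCC, in this order and searched on the sense strand within 150 bases after the stop codon in GENCODE M21 transcripts (GRCm38), were found in 42 of the 67 protein-coding members (62.7%) and in 2 of 21738 other genes (0.0092%). The first base of the match lay 21 to 58 bases past the stop codon, with a median of 31. The following 26-base stretches, with the stem-loop in capitals and its flanks in lower case, show the 5 forms that were seen, each for a gene described below or the sole or clearest holder of that form.
Hist1h1c: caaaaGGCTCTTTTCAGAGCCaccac
Hist1h3b: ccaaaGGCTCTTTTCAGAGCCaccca
Hist2h3c2: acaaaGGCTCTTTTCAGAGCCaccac
Hist1h2bk: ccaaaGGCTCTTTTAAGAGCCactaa
Hist1h4h: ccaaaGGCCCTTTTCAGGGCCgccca
Hist1h4i: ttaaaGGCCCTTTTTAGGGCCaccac
Hist2h2ac: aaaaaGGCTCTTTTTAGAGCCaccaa

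In mouse coordinates of GRCm38 these lie at chr13:23739507-23739532 (plus strand, *Hist1h1c*), chr13:23752815-23752840 (plus, *Hist1h3b*), chr3:96238480-96238505 (minus, *Hist2h3c2*), chr13:22036295-22036320 (plus, *Hist1h2bk*), chr13:23531453-23531478 (plus, *Hist1h4h*), chr13:22040961-22040986 (minus, *Hist1h4i*) and chr3:96220413-96220438 (minus, *Hist2h2ac*), each in the 3′ UTR of its gene. The form of *Hist1h1c*, with a stem of GGCTCT and AGAGCC around the loop TTTC, was the commonest and was held by 26 members of types H1, H2A, H2B and H3. The same stem held the loop TTTA in 6 members, as in *Hist1h2bk*, and the loop TTTT in *Hist2h2ac* alone. The stem of GGCCCT and AGGGCC was held by H4 genes, 7 with the loop TTTC and 2, *Hist1h4i* and *Hist2h4*, with the loop TTTT. Of the 25 protein-coding members with no match, 15 have gene models that end at the stop codon or within 2 bases of it, so that no 3′ UTR could be searched.

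Few of the histone cluster genes were detected, and at low values. With a value of at least 10 in at least 3 libraries as the filter, 23 of 69 members passed (33.3%), as did 14456 of the 24972 symbols in the table, and 8 reached 10 in all 6 libraries. A value above 0 was seen in at least 1 library for 63 members, in at least 3 libraries for 55 and in all 6 for 22. The 6 members listed at 0 in every library were *Hist1h2aa*, *Hist1h2ba*, *Hist1h2bp*, *Hist1h4j*, *Hist1h4m* and *Hist2h3c1*. *Hist1h4m* shares 91.7% of its 31-base words (runs of 31 bases) with *Hist1h4n*. For *Hist2h3c1*, 100% of them also occur in genes outside the list. A 0 can thus stand for reads assigned to another gene. By type, 2 of 6 H1 genes, 5 of 19 H2A, 8 of 19 H2B, 5 of 12 H3 and 3 of 13 H4 genes passed. By cluster, 17 of 55 Hist1 genes, 4 of 10 Hist2 genes and 2 of 3 Hist3 genes passed, and the single Hist4 gene did not. All 69 together held 0.00525%, 0.00561% and 0.00553% of the total value in control 1, 2 and 3, and 0.00677%, 0.00434% and 0.00466% in iECKO 1, 2 and 3.

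Depth differed between the groups and bears on these counts. Read numbers were not recovered from the normalized values, but the most frequent low value of a library, taken as the worth of 1 read, was 2.30, 2.34 and 2.26 in control 1, 2 and 3 and 1.87, 1.51 and 1.86 in iECKO 1, 2 and 3, so that 1 read weighed less in each iECKO library. A value of 10 thus stood for about 4.28 to 4.43 reads in a control and 5.34 to 6.62 reads in an iECKO library. Members above 0 numbered 42, 46 and 43 in the controls and 52, 49 and 52 in the iECKO libraries, which were also the deeper ones by this measure. Members at or above 10 numbered 19, 21 and 19 against 30, 18 and 23, and the groups overlapped. The totals of the normalized values ran from 26243878 to 28725799 and, being scaled, do not give the depth.

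**Figure D1:**
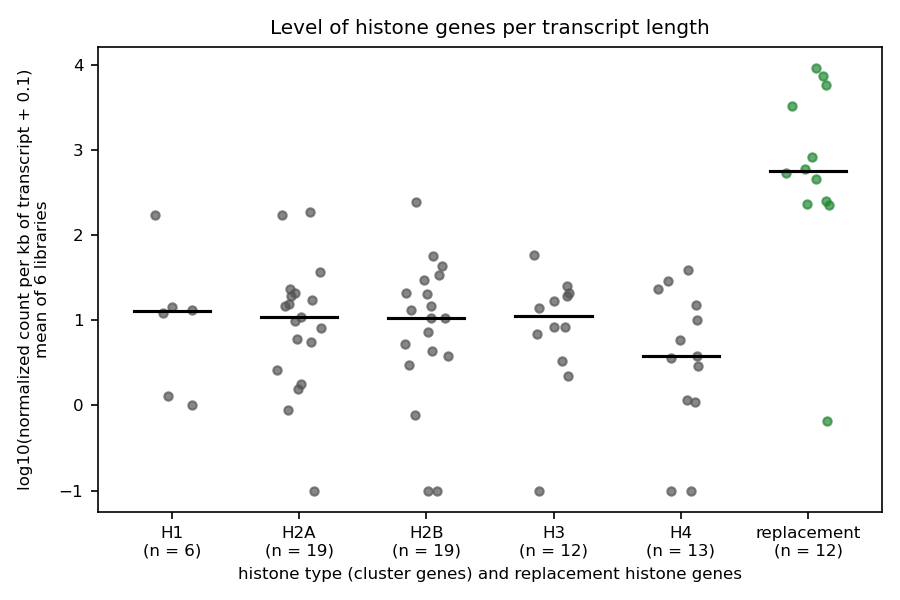
Mean normalized count over the 6 libraries per kb of the longest transcript, as log10(value + 0.1), for each histone cluster gene by type and for the 12 replacement histone genes; each point is a gene and the line its group's median. The cluster types have medians between 3.71 (H4) and 12.6 (H1) per kb, against 563 for the replacement genes.

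Divided by transcript length, the cluster genes lay far below the replacement histone genes of the same libraries. The median level per kb of the longest transcript was 12.6 for H1, 10.9 for H2A, 10.6 for H2B, 11.0 for H3 and 3.71 for H4 genes. The 12 replacement genes had a median of 563 per kb and ran from 0.558 (*H2afy3*) to 9072 (*H3f3b*, one of the genes for H3.3). The highest cluster genes were *Hist1h2bc* at 240.6, *Hist2h2aa1* at 185, *Hist1h1c* at 172 and the pseudogene *Hist1h2al* at 172 per kb. As a comparison within the libraries, 11 of 16 listed RNAs that cells make without a poly(A) tail were in the table, and 7 of these, *Terc*, the telomerase RNA, among them, were listed at 0 in every library. *Rmrp*, the RNA of RNase MRP, lay between 1.46 and 11.1, and the ribosomal RNA precursor *Rn45s* between 269 and 374. The plot of levels per kb shows the separation of the cluster genes from the replacement genes, with overlap at the low end.

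A handful of genes carried most of the signal. The 10 highest members held 75.5% of the summed value, and H2B genes held 41.9%, H2A genes 21.9%, H1 genes 21.9%, H3 genes 8.96% and H4 genes 5.31%. *Hist1h1c* alone made up 83.9% of the H1 sum, *Hist1h2bc* 45.4% of the H2B sum, *Hist2h3c2* 45.0% of the H3 sum, *Hist1h4i* 36.2% of the H4 sum and *Hist2h2aa1* 33.8% of the H2A sum. Members whose longest model is at least 1000 bases numbered 18 and held 68.4% of the sum. An AATAAA after the stem-loop, or after the stop codon where no stem-loop was found, was present in 19 members. These 19 held 62.7% of the sum, not divided by length, although 7 of them passed the filter against 16 of the other 50. *Hist1h2bc* alone made up 30.3% of the sum of these 19. Per kb the order was the reverse, with a median of 5.40 for the 19 and 10.7 for the other 50. Among the 67 protein-coding members 14 (20.9%) had AATAAA in the last 50 bases of a transcript, as did 66.0% of the other genes.

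Summed over all 69 genes, the cluster genes did not separate the genotypes. The sum was 1507, 1559 and 1457 in control 1, 2 and 3 and 1844, 1177 and 1223 in iECKO 1, 2 and 3. The mean was 1508 ± 51.2 in the controls and 1415 ± 372 in the iECKO libraries (SD, n = 3), a ratio of 0.938. The iECKO library 1 was above all controls and the other two iECKO libraries were below them. Because the samples are bulk, fewer cells of a type and less RNA per cell cannot be told apart in this or any following value. The study calls the samples biological replicates, and whether litters were shared is not given in the sources used here.

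**Figure D2:**
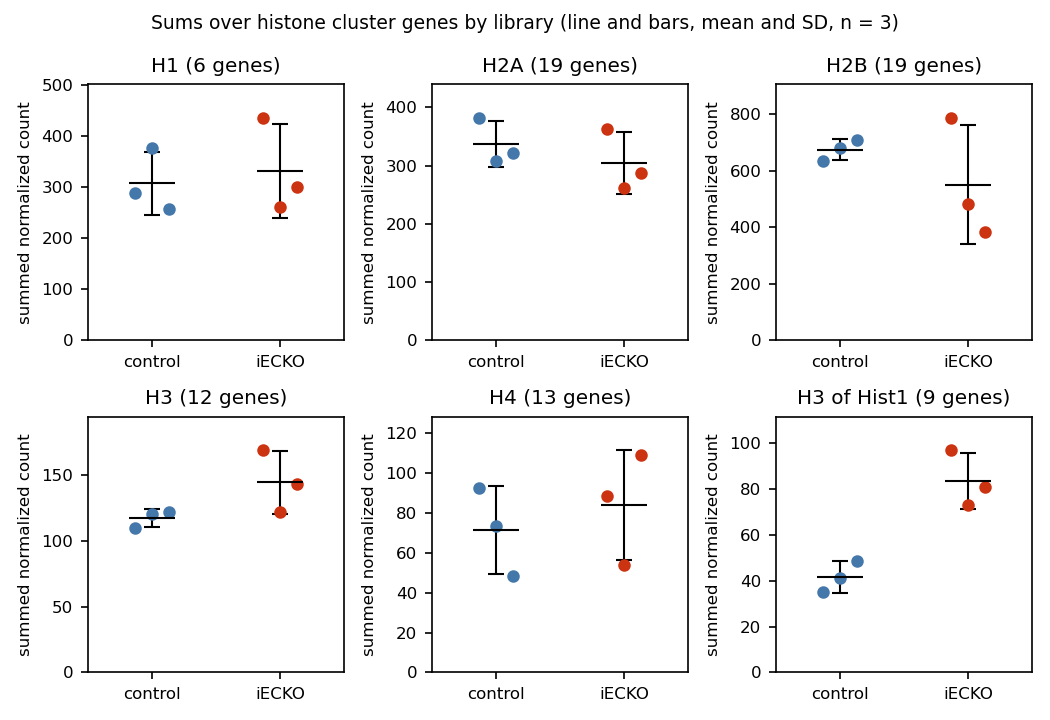
Summed normalized count per library over the cluster genes of each histone type and over the 9 H3 genes of the Hist1 cluster; each point is a library, and the line and bars are the mean and SD (n = 3 per genotype). The genotypes overlap for each of the 5 types, while the Hist1 H3 genes reach at most 48.7 in a control and at least 73.0 in an iECKO library.

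The same sum was then taken by histone type, without a test, since it is a score over chosen genes. For H1 it was 308 ± 61.6 in controls and 332 ± 91.9 in iECKO libraries, and for H2A 337 ± 39.4 and 304 ± 53.1. For H2B it was 674 ± 37.0 and 550 ± 211, and for H4 71.5 ± 22.1 and 83.8 ± 27.7. For H3 it was 117 ± 6.69 and 145 ± 23.7 (all SD, n = 3). The libraries of the groups overlapped for each of the 5 types. The 10 highest genes together had 1206 ± 25.3 in controls and 999 ± 299 in iECKO libraries, and the other 59 had 302 ± 71.4 and 415 ± 81.5. By cluster, Hist1 was at 1049 ± 39.9 and 1038 ± 319, and Hist2 at 359 ± 46.5 and 293 ± 35.9.

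Gene by gene, 2 of the 23 members that passed the filter were called higher in *Atp6ap2* iECKO and 0 lower (limma with Benjamini-Hochberg adjustment over 14456 genes, adjusted p under 0.05). Of all genes tested, 1193 (8.25%) were called, 474 (3.28%) higher and 719 (4.97%) lower, and 270, 250 and 206 genes were called without control 3, iECKO 2 and iECKO 3. At an unadjusted p under 0.05, 5 members passed, against 3453 genes in all. The log2 fold change was above 0 in 14 and below 0 in 9 of the 23, with a median of 0.09, against 0.0049 over all genes tested. Among these 23, groups did not overlap for 3 members that were higher and 4 that were lower in iECKO. The share over all genes tested was 29.8% (14.7% higher, 15% lower). Over all 69 members listed, groups did not overlap for 9 that were higher and 4 that were lower in iECKO. The share over all 24972 symbols was not computed, so this wider count has no background beside it. The members added by this wider count lay under the filter, were not tested and are subject to the depth difference described above. Both called genes passed the filter through the iECKO libraries alone, and *Hist1h3d*, 1 of the 4 that were lower, through the controls alone. The filter itself thus favoured their separation, and neither the calls nor the members without overlap are read against those shares.

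**Figure D3:**
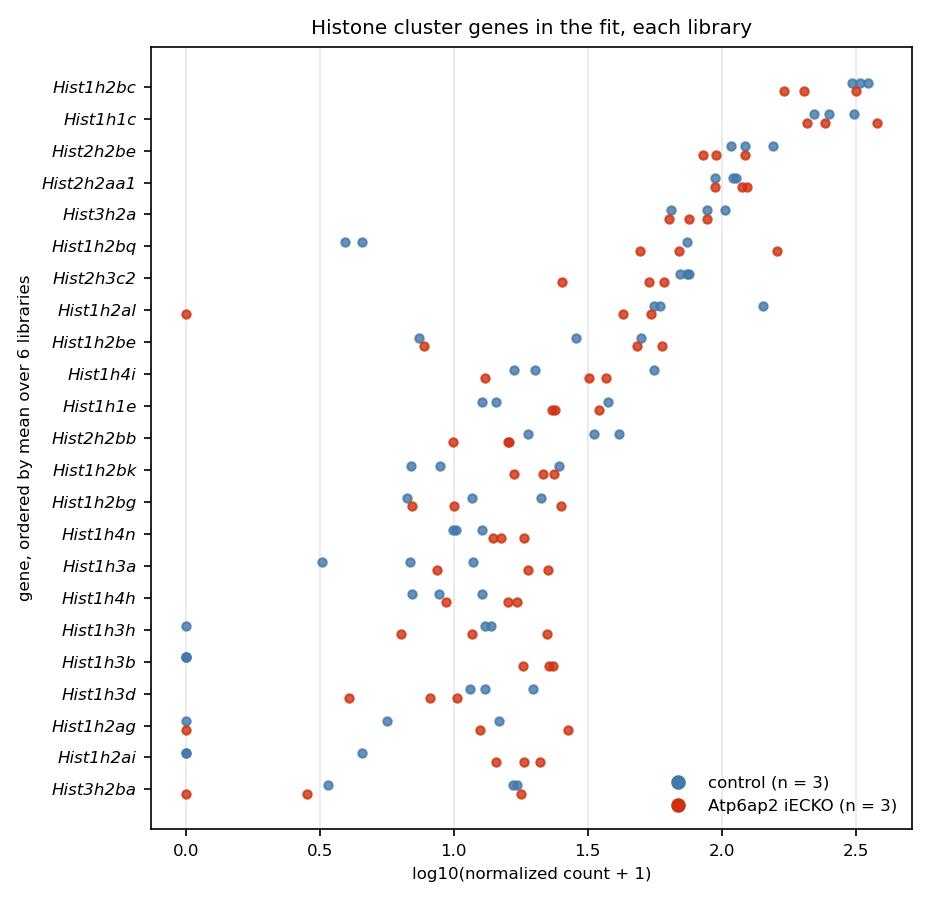
Normalized count, as log10(value + 1), in each of the 6 libraries for the 23 histone cluster genes in the fit, ordered by their mean over all libraries; each point is a library (3 control, 3 *Atp6ap2* iECKO). The points of *Hist1h3b* separate completely, at 0 in the controls and 17.2 to 22.5 in iECKO libraries, whereas *Hist1h2bc*, *Hist1h1c* and *Hist2h2aa1* overlap at the top.

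The call with the smallest p was for *Hist1h3b*, an H3 gene on the plus strand at chr13:23752267-23752886 with a single exon. It was listed at 0 in all 3 controls and at 22.5, 21.7 and 17.2 in iECKO 1, 2 and 3 (adjusted p = 0.0092, limma with Benjamini-Hochberg adjustment). Because the gene entered the fit only through the group in which it was high, that p carries no weight beyond the values, and leaving out any 1 iECKO library took the gene under the filter. In units of the worth of 1 read, its iECKO values were about 12.0, 14.4 and 9.23, and no fold can be given against a group at 0. Other H3 genes share 61.9% of its 31-base words, so reads could be assigned to one copy or another. The exact two-sided permutation test gives 0.1, the smallest p that 3 against 3 allows, here and for every gene below whose groups do not overlap.

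*Hist1h2ai*, an H2A gene on the plus strand at chr13:21716422-21716814, was the other call. It was at 3.54 in control 1 and listed at 0 in controls 2 and 3, and it reached 20.1, 17.3 and 13.4 in iECKO 1, 2 and 3. The 3 controls lay under the value of 3 reads in their libraries, 6.77 to 7.02, so that no fold is given. The fit gave an adjusted p of 0.0337 (limma with Benjamini-Hochberg adjustment), which is subject to the same limit as for *Hist1h3b*. This call was lost with *Xist* as a covariate (adjusted p = 0.0522), without the mean-variance trend (0.0569), and when control 2 (0.0732) or control 3 (0.0972) was left out, and leaving out any 1 iECKO library took the gene under the filter. The gene shares 86.8% of its 31-base words with other cluster members and starts 279 bases from *Hist1h2bl*, an H2B gene on the opposite strand that was listed at 0 in all controls and at 6.63, 8.32 and 9.18 in the iECKO libraries. *Hist1h2bl* fell under the filter and was not tested.

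Since a read from near-identical copies can be assigned to either, sums over sets of genes that share sequence were also taken. These sets and sums were chosen after values had been seen, and no test was made on them. Members were linked where at least 50% of the 31-base words of the one with fewer words were shared. Chains of such links gave 7 sets, which hold 51 of the 69 genes. A longer linked member can thus share little of its own sequence. *Hist1h2be* shares 5.29% of its words with *Hist1h2bn*, and *Hist1h2bc* 21.5% with *Hist1h2bl*. The direction of the sums differed between sets. The 9 H3 genes of Hist1 form 1 set, and their sum was 35.1, 41.0 and 48.7 in control 1, 2 and 3 and 97.0, 73.0 and 80.9 in iECKO 1, 2 and 3. The mean was 41.6 ± 6.83 against 83.6 ± 12.3 (SD, n = 3), a ratio of 2.01, and the groups did not overlap. Leaving out each library in turn gave ratios of 1.85 to 2.20, all with *Hist1h3b* in the sum. Since the set was chosen after values had been seen, this range is no support for the separation. Without *Hist1h3b*, the other 8 genes summed to 74.5, 51.3 and 63.7 in iECKO 1, 2 and 3, each still above the highest control. The ratio of the mean sums over these 8 was 1.52. In units of the worth of 1 read, the sum over the 9 genes came to 15.2, 17.6 and 21.6 against 51.9, 48.3 and 43.5. The H3 set of Hist2 (*Hist2h3b*, *Hist2h3c1* and *Hist2h3c2*) went the other way, with 74.5, 79.2 and 73.2 in controls and 72.1, 48.7 and 62.1 in iECKO libraries, a ratio of 0.806 without overlap. The set of 14 H2B genes of Hist1 summed to 505 ± 41.4 and 431 ± 183 (ratio 0.853), the set of 7 H4 genes to 48.7 ± 23.1 and 57.0 ± 19.4 (1.17), and *Hist1h4m* with *Hist1h4n* to 9.97 ± 1.55 and 14.8 ± 2.28 (1.48; SD, n = 3).

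**Figure D4:**
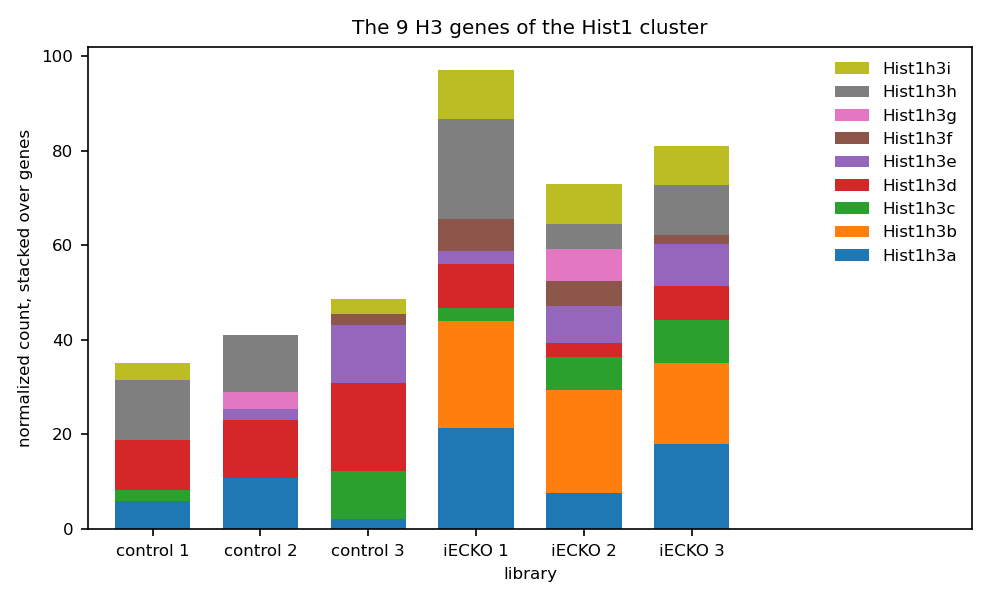
Normalized count of each of the 9 H3 genes of the Hist1 cluster, stacked, in each of the 6 libraries. The highest control stack is 48.7 and the lowest *Atp6ap2* iECKO stack 73.0, and the segment of *Hist1h3b* is absent from all 3 controls.

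The stacked plot of the Hist1 H3 genes shows which copies made up the sum. *Hist1h3a* was at 5.86, 10.8 and 2.22 in controls and 21.4, 7.65 and 18.0 in iECKO libraries. *Hist1h3d* went the other way, with 10.5, 12.1 and 18.7 in controls and 9.28, 3.07 and 7.17 in iECKO libraries, and it was not called (limma adjusted p = 0.293). It reached 10 in the 3 controls only and so entered the fit through the group in which it was high, with the same limit as for *Hist1h3b*. It is the H3 gene of the cluster with the second-longest model, 1249 bases. *Hist1h3h* and *Hist1h3i*, whose models end at the coding sequence, share 94.2% and 93.2% of their 31-base words with other members. *Hist1h3h* was at 12.8, 12.1 and 0 in controls and 21.2, 5.37 and 10.7 in iECKO libraries (log2 fold change 1.06, limma adjusted p = 0.602).

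The H2A genes form a pair of sets that differed in direction. The set of 12 that share sequence, all Hist1 H2A genes other than *Hist1h2aa* and *Hist1h2al*, summed to 38.6, 55.7 and 37.1 in control 1, 2 and 3 and to 100.5, 63.9 and 73.9 in iECKO 1, 2 and 3. The means were 43.8 ± 10.3 and 79.4 ± 18.9 (SD, n = 3), a ratio of 1.81. It was 1.57 to 2.10 when each library was left out, all with *Hist1h2ai* in the sum. Without *Hist1h2ai* the iECKO sums were 80.4, 46.6 and 60.5 against 35.0, 55.7 and 37.1, a ratio of 1.47, and the groups overlapped. The other set, *Hist1h2al* with *Hist2h2aa1*, *Hist2h2aa2* and *Hist2h2ac*, summed to 256, 186 and 183 in controls and to 175, 133 and 139 in iECKO libraries, a ratio of 0.716 without overlap. Of this set, *Hist2h2aa1* and *Hist2h2aa2* together had 112, 129 and 121 in controls and 118, 123 and 93.8 in iECKO libraries. Their ratio was 0.926 and the groups overlapped. Over all 14 H2A genes of Hist1, *Hist1h2al* included, the sums were 129 ± 45.3 and 111 ± 45.1 (SD, n = 3), a ratio of 0.864, and the groups overlapped. *Hist1h2al*, annotated as a processed pseudogene at chr13:51202727-51203065, outside the main part of the cluster, was at 142, 54.7 and 58.1 in controls and at 53.2, 0 and 41.8 in iECKO libraries (limma adjusted p = 0.314).

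*Hist2h2aa1* and *Hist3h2a* are H2A genes outside Hist1 and were among the 10 highest cluster genes by value. *Hist2h2aa1*, on the plus strand at chr3:96245497-96246082, was at 112, 93.1 and 109 in controls and 118, 123 and 93.8 in iECKO libraries (log2 fold change 0.09, SE 0.21, adjusted p = 0.842, limma with Benjamini-Hochberg adjustment). Its copy *Hist2h2aa2* shares all of its own 31-base words with other members and was above 0 in controls 2 and 3 only. *Hist3h2a*, on chromosome 11, was at 87.5, 63.7 and 102 in controls and 87.4, 62.8 and 74.7 in iECKO libraries (log2 fold change -0.15, SE 0.27, limma adjusted p = 0.779). Neither gene separated the genotypes. On the same strand *Hist2h2aa1* overlaps *Gm20634* and *Hist3h2a* overlaps *Trim17*. Of their 31-base words, 100% and 32.1% also occur in genes outside the list, so neither value can be assigned to its gene alone. *Hist1h2ag*, the remaining H2A gene in the fit, ranged from 0 to 13.7 in controls and from 0 to 25.8 in iECKO libraries (limma adjusted p = 0.818).

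Among the H2B genes, *Hist1h2bc* was the highest of all cluster members. It was at 306, 326 and 349.9 in controls and at 316, 201 and 169 in iECKO libraries, of which 2 lay below every control. The log2 fold change was -0.56 (SE 0.23, adjusted p = 0.187, limma with Benjamini-Hochberg adjustment), and it was called, at -0.82 with an adjusted p of 0.0391, only when iECKO 1 was left out. *Hist2h2be* was at 107, 154 and 121 in controls and 121, 94.0 and 83.8 in iECKO libraries (log2 fold change -0.35, SE 0.24, adjusted p = 0.422). *Hist2h2bb*, whose groups did not overlap, was at 32.3, 40.2 and 18.0 in controls and 15.0, 8.96 and 14.9 in iECKO libraries (log2 fold change -1.12, SE 0.44, adjusted p = 0.171). All of its 31-base words also occur in annotated genes outside the list, with *Gm42743* overlapping it on the same strand and *Gm20628* on the other, so its value cannot be assigned to it alone. Neither *Hist1h2bc* nor *Hist2h2be* has the stem-loop letters in its searched models, and both carry an AATAAA.

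A near-identical pair of H2B genes had values that alternated between libraries. *Hist1h2bq* was at 3.55, 73.5 and 2.92 in control 1, 2 and 3 and at 160.3, 68.5 and 48.7 in iECKO 1, 2 and 3. *Hist1h2br* was at 136.7, 0 and 132.9 in the same controls and at 0, 0 and 1.71 in the iECKO libraries. The pair shares 98.3% of the 31-base words of *Hist1h2bq* and 89.5% of those of *Hist1h2br* with other members. In each library nearly all of the pair's value was listed under 1 of them. The sum of the pair was 140.2, 73.5 and 135.9 in controls and 160.3, 68.5 and 50.4 in iECKO libraries, a ratio of 0.799, and the groups overlapped. Taken alone, *Hist1h2bq* had a log2 fold change of 2.90 (SE 1.08, adjusted p = 0.149, limma with Benjamini-Hochberg adjustment), and it was called (adjusted p = 0.0115) when control 2 was left out. *Hist1h2be*, whose annotated span overlaps *Hist1h1e*, was at 6.41, 27.5 and 48.9 in controls and 47.4, 58.7 and 6.74 in iECKO libraries, with no order between the groups. The other H2B genes in the fit, *Hist1h2bg*, *Hist1h2bk* and *Hist3h2ba*, overlapped between the groups and had log2 fold changes of 0.03, 0.83 and -1.42 (limma adjusted p of 0.983, 0.417 and 0.505).

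The linker histone *Hist1h1c*, which encodes H1.2 and lies on the plus strand at chr13:23738808-23740367, was at 251, 311 and 219.6 in controls and at 380.0, 207 and 241 in iECKO libraries. Its log2 fold change was 0.05 (SE 0.25, adjusted p = 0.932, limma with Benjamini-Hochberg adjustment), and the highest and the lowest value were both iECKO libraries. *Hist1h1e*, the other H1 gene in the fit, had a log2 fold change of 0.49 (SE 0.50, limma adjusted p = 0.605). *Hist2h3c2*, the highest H3 gene, was at 74.5, 73.0 and 68.9 in controls and at 59.97, 24.4 and 52.3 in iECKO libraries, which did not overlap (log2 fold change -0.75, SE 0.36, limma adjusted p = 0.262). It lies in Hist2, and its iECKO values lay below the controls, while the summed Hist1 H3 genes lay above them. *Hist1h4i*, the highest H4 gene, ranged from 15.7 to 54.9 over the controls, and the iECKO libraries, from 12.1 to 36.0, overlapped them. For *Hist1h4h* the groups overlapped too (log2 fold change 0.57, limma adjusted p = 0.539). *Hist1h4n* was at 11.8, 9.18 and 8.97 in controls and reached 14.0 or more in 2 iECKO libraries and less in the other (log2 fold change 0.53, limma adjusted p = 0.493), and the groups did not overlap.

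**Figure D5:**
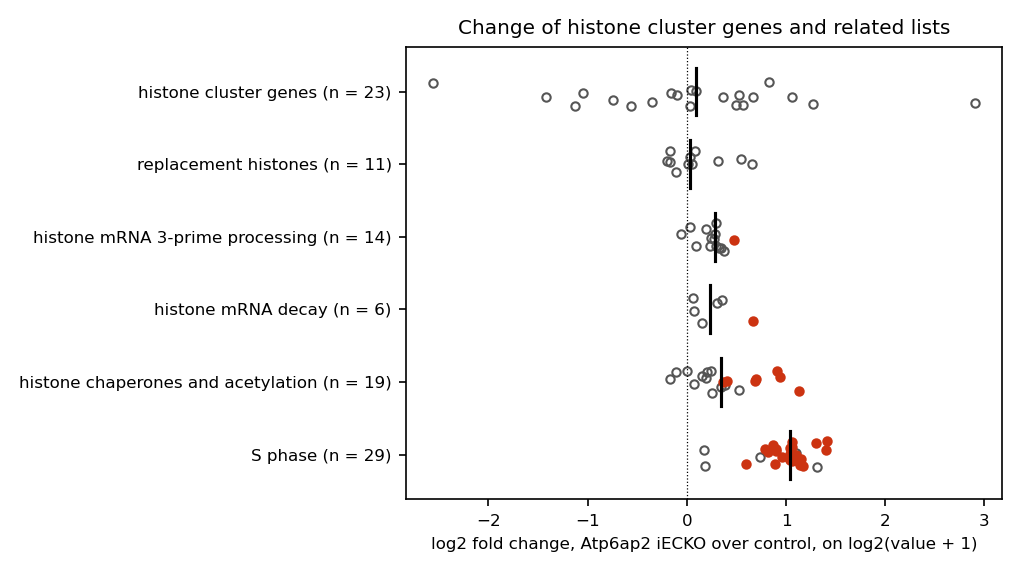
Log2 fold change of *Atp6ap2* iECKO over control, on log2(value + 1), for the tested genes of 6 lists; each point is a gene, filled red where the limma adjusted p was under 0.05 and open otherwise, and the line is the list's median. *Hist1h3b* and *Hist1h2ai*, called but with no fold given, count in the list's median and are not drawn, and the S phase genes have a median of 1.05 and 24 of 29 called, the histone cluster genes a median of 0.09 and 2 of 23 called.

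The genes that act on histone mRNA and on histones were read from lists, beside the background of 3.28% called higher and 4.97% lower. Of the 29 S phase genes, which encode replication factors and their regulators, 24 were called higher and 0 lower, with a median log2 fold change of 1.05. *Mcm2*, a subunit of the replicative helicase, was at 1123, 2142 and 1267 in controls and 2943, 3195 and 3322 in iECKO libraries (log2 fold change 1.12, SE 0.22, limma adjusted p = 0.0239). *Pcna*, the sliding clamp of the DNA polymerases, rose by 0.60, *Ccne2* (cyclin E2) by 1.07 and *E2f1*, a transcription factor of S phase genes, by 1.10 on the log2 scale. The number called fell to 15 without control 1, to 14 without iECKO 1, to 2 without control 3, iECKO 2 or the mean-variance trend and to 1 without iECKO 3. With *Xist* as a covariate 18 were called, and the calls of *E2f1* (adjusted p = 0.0504), *Mcm4* (0.0544), *Mcm6* (0.0620), *Pola1* (0.0658), *Pole* (0.0647) and *Tyms* (0.0620) were lost. With no filter beyond a value above 0 in 1 library 23 were called, without *Pola1* (limma adjusted p = 0.0505). In the main fit *Cdc6*, *Gins1*, *Gins3*, *Gins4* and *Cdk2* did not pass.

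The factors of histone mRNA processing and decay had 1 call in each list. Of 14 genes listed under 3′ processing, a list that also holds the transcription factor gene *Npat*, *Slbp* alone was called, higher. The list's median was 0.28. *Slbp* was at 1806, 1952 and 1709 in controls and 2482, 2717 and 2387 in iECKO libraries, without overlap (log2 fold change 0.47, SE 0.088, adjusted p = 0.0215, limma with Benjamini-Hochberg adjustment). The call was lost without control 3 (adjusted p = 0.0746), iECKO 2 (0.0928), iECKO 3 (0.0638) or the mean-variance trend (0.0722). *Npat*, the coactivator of cluster histone transcription, had a log2 fold change of 0.29 (adjusted p = 0.0619), *Casp8ap2* 0.29 (0.219) and *Lsm11*, a protein of the U7 snRNP, 0.27 (0.340). Of 8 listed decay genes 6 were in the table, and *Eri1*, the exonuclease that trims the histone stem-loop, was called higher, at 1094, 1058 and 817 in controls and 1562, 1548 and 1566 in iECKO libraries (log2 fold change 0.67, SE 0.12, adjusted p = 0.0197). Its call was lost without iECKO 2 (0.0724), iECKO 3 (0.0799) or the mean-variance trend (0.0671).

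Among 19 histone chaperones and acetylation factors, 7 were called higher and 0 lower, and the median log2 fold change was 0.34. *Asf1b*, a chaperone of newly made H3 and H4, rose from 116, 168 and 145 in controls to 329, 327 and 282 in iECKO libraries (log2 fold change 1.14, SE 0.19, adjusted p = 0.0146). *Chaf1a* and *Chaf1b*, subunits of the CAF-1 complex that deposits histones at forks, rose by 0.91 and 0.94, and *Hat1*, which acetylates new H4, by 0.68 on the log2 scale. *Ipo4*, *Nap1l1* and *Ssrp1* were the other 3. The number called was 3 without iECKO 1, 1 without control 1 or the mean-variance trend and 0 without control 3, iECKO 2 or iECKO 3. With no filter beyond a value above 0 in 1 library 5 were called, without *Hat1* (limma adjusted p = 0.0529) and *Ssrp1* (0.0505). With *Xist* as a covariate 2 were called, and the calls of *Chaf1a* (adjusted p = 0.0633), *Chaf1b* (0.0515), *Hat1* (0.0704), *Nap1l1* (0.0651) and *Ssrp1* (0.0730) were lost. *Nasp*, a chaperone that keeps a reserve of H3 and H4, had a log2 fold change of 0.38 (limma adjusted p = 0.0626). It was called without control 2 (0.0256), with the replicate number as a block (0.0338) and with library size scaling (0.0408).

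Of the 12 replacement histone genes 11 were tested and 0 were called in either direction. An unadjusted p under 0.05 was seen for 4 of them, and for 3453 of the 14456 genes tested. *H2afx* had a log2 fold change of 0.65 (SE 0.20, limma adjusted p = 0.0923), *H2afz* 0.32 (0.065) and *Cenpa*, the centromeric H3, 0.54 (0.086). Without control 2 *H2afx* was called (limma adjusted p = 0.0369), and with library size scaling *H2afz* was (0.0353). With the replicate number as a block 3 were called higher, *H2afx* (0.0228) and *H2afz* (0.0451) among them. *H3f3a* and *H3f3b*, the genes for H3.3, had -0.20 and 0.05, and *H1f0*, the linker histone of resting cells, 0.08.

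Markers of other lung cells moved with genotype and are given beside these results, and their part in them was not tested. The calls given for the marker lists are those of the main fit. Of 14 tested fibroblast markers 12 were called lower and 0 higher, with a median log2 fold change of -1.53, and the list's sum was 155542, 222401 and 181599 in controls and 92387, 70557 and 60822 in iECKO libraries. Its most abundant gene was *Fn1*, and *Lum* lay near 0. Of 15 mural and smooth muscle markers 9 were called lower, with a median of -1.51 and sums of 57925, 55610 and 56082 against 51232, 45388 and 43134, the bulk of it *Mcam*, which endothelial cells also express. Of 15 epithelial markers, led by *Sftpc*, 1 was called higher and the median was -0.14, with sums of 32736, 29329 and 79271 against 43428, 36394 and 36879. No gene was called among 14 leukocyte markers, led by *Lyz2* (sums of 11992, 6559 and 11241 against 13381, 5493 and 15822), or 8 erythroid markers, led by *Hba-a1* (11323, 38428 and 48008 against 10686, 18452 and 22326). *Hbb-bs* was listed at 0 in every library. Of 15 endothelial markers 1, *Tek*, was called lower, the median was 0.03, and the sums were 555858, 464735 and 426785 against 489596, 452130 and 407660.

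The members share features that the rule did not use. Of 69 genes 64 are single-exon, 26 start within 500 bases of another member on the opposite strand, as 13 divergent pairs, and 22 overlap another annotated gene on the opposite strand, which an unstranded library cannot separate, and 7 overlap another gene on the same strand. For 20 members at least 50% of the 31-base words also occur, on either strand, in genes outside the list, among them *Hist2h2aa1* (100%), *Hist1h2ai* (89.3%), *Hist1h2al* (79.9%) and *Hist2h3c2* (64.2%). The median member has 55.2% of its 31-base words in other members, and for 40 of 69 the share is at least 50%. RefSeq promoters (GRCm38.p6, 250 bases before to 50 after the start) were matched for 62 of 69. The letters CCAAT, on either strand, were in 53 of them (85.5%) against 37.4% of all 32851 promoters, in every H1, H2A, H2B and H3 promoter but in 3 of 12 H4 promoters. TATAAA was in 35 (56.5%) against 13.6%, and the octamer ATGCAAAT in 14 (22.6%) against 1.74%, all of these 14 in H2A (7 of 18) and H2B (7 of 16) genes. A match is a description of letters and not a bound site.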

How the data were processed

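Per the labels the values are raw counts, but the deposited table holds normalized signal: it is not whole-numbered, and the median ratio of a library to the geometric mean is 1.0036 in all 6. The authors aligned reads to mm10 and quantified genes with BaseSpace tools; the annotation is not given in the sources used here. Because the unit was not a count, no count test was run. Values were tested as log2(value + 1) by limma 3.58.1 (R 4.3.3) with a mean-variance trend, without covariates, on 14456 genes with at least 10 in at least 3 libraries, and Benjamini-Hochberg adjusted (threshold 0.05). The fit was also run on simulated data, but the outcome is not given here and no result rests on it. Lists, histone members and the comparisons were chosen with earlier results of these data known. Named genes were every cluster gene that passed the filter, in full where called, among the 10 highest, or highest of its type, plus called and listed pathway genes. *Hist1h2bl*, *Hist1h2br*, *Hist2h2aa2*, *Hist2h3b*, *Hist1h3i* and the H3 and H2A sums were chosen after their values were seen. Sequences came from GENCODE M21 and RefSeq, read within transcripts only. Figures were drawn with matplotlib 3.10.9. Alternatives changed scaling, filter, pseudocount, variance model, covariates and libraries. All deposited sample columns were used. Intervals for counting error could not be given, since depth is known only by the worth of 1 read.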

Additional observations from a re-analysis of the deposited data

How the results depend on the processing

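The 2 calls among histone cluster genes became 0 with a filter of 50 and 1 without the mean-variance trend or with *Xist* as a covariate, 3 with no filter, and ranged from 0 to 2 when 1 library was left out, where calls lower went from 0 to 1. Without an iECKO library both called genes fell under the filter. Members detected (23) were 55 with a value above 0 or of at least 1 in 3 libraries, 8 with at least 50 and 8 with at least 10 in all 6. All genes called (1193) were 304 without the trend, 767 with *Xist*, and 206 to 983 when 1 library was left out, with 270, 250 and 206 without control 3, iECKO 2 and iECKO 3. Without the trend, S phase genes called higher were 2, chaperones 1, 3′ processing 0 and decay 0; chaperones were 2 with *Xist*; library size scaling gave 2 for 3′ processing and 1 for replacement histones. Leaving out 1 library gave 1 to 26 for S phase, 0 to 8 for chaperones, 0 to 1 for 3′ processing, 0 to 2 for decay and 0 to 1 for replacement histones. *Hist1h1c* turned to -0.07 and -0.21 without control 3 and iECKO 1 (0.23 at the other end of the range, without iECKO 2), and *Hist1h2be* to -0.42, -0.03 and -0.18 without control 1, iECKO 1 and iECKO 2 (1.29 at the other end, without iECKO 3). The cause was not tested. Over all 69 genes the ratio of sums stayed between 0.796 and 1.02.

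Whether replicate numbers pair the samples is not settled. Correlations of deviations were 0.25, 0.11 and 0.08 for same-numbered libraries and ran from -0.21 to 0.10 for the others. With the replicate number as a block, 1508 genes were called and 3 replacement histones were higher, and the same 2 histone cluster genes were called.

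Depth limits the cluster genes: a value of 10 is 4.28 to 6.62 reads, and an absent gene could still hold 3 reads, a value of 4.53 to 7.02.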
